A study of Rattus norvegicus with 8 samples.

Results

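The genes that make, carry, sense and degrade retinoic acid were followed in the ventral prostate of transgenic TRAP rats, which develop prostate carcinoma. The group held 9 genes, taken by the gene name printed on the array (with a suffix for predicted or mapped genes removed): the dehydrogenases Rdh10, Aldh1a1, Aldh1a2 and Aldh1a3, the carriers Rbp4, Crabp1 and Crabp2, the receptor gene Rarb and the degrading enzyme Cyp26b1. They were read by 10 of the 41012 probes, Rarb by 2 and each other gene by 1, and 8 of the 9 genes were among the 23188 genes bright enough to be tested. The genes were chosen by function and selected on measured values, their levels over the reference and their differences between treated and control rats, so both are given here as a description, without a test.

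RNA from 8 heterozygous male TRAP rats was measured, 1 array per rat. The labels give the strain of the transgenic rats as SD, and their age at sampling as 15 weeks. The 4 control rats (102, 103, 104 and 106) had basal diet and tap water. The 4 treated rats (302, 303, 305 and 306) drank telmisartan, a blocker of the angiotensin type I receptor, at 10 mg/kg per day for 12 weeks from 3 weeks of age. As background, the transgene of TRAP rats is a viral oncogene under the promoter of probasin, a gene of prostate epithelium, and it was carried by treated and control rats alike. Each array also held a second RNA in the other dye, normal ventral prostate of 6-week-old male F344 rats without the transgene. Values are log2 ratios of the TRAP prostate (Cy5) over this reference (Cy3), so a ratio of 0 is an equal level and 1 is a doubling. Strain, age, transgene and dye all differ between the sides of the ratio and cannot be told apart. In whole tissue, fewer cells of a type and less RNA per cell cannot be told apart either.

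Retinol circulates bound to the protein of Rbp4, enters cells and is oxidised to retinaldehyde by dehydrogenases such as the one encoded by Rdh10. The enzymes of the Aldh1a genes turn retinaldehyde into retinoic acid, which is carried in the cytoplasm by the Crabp proteins and bound in the nucleus by retinoic acid receptors paired with retinoid X receptors. Enzymes of the Cyp26 family end the signal by oxidising retinoic acid, and several genes of the pathway are themselves targets of the receptors. Retinoids are known in the prostate for their part in bud formation and epithelial differentiation.

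Sequences are shown for the receptor gene Rarb, whose promoter is a textbook target of the retinoic acid receptors, and for Cyp26b1, the only member whose treated and control rats did not overlap. Both are RefSeq promoters of the assembly GRCr8, from 250 bases before the start of the gene to 50 after it, written 5′ to 3′ along the gene. RefSeq entries were matched by symbol for 8 of the 9 genes, all but Rdh10. Capitals mark the motif AGGTCA, the motif AGTTCA, the motif GGGTCA or the motif GGTTCA on either strand, the core motifs to which receptors of this family bind.
Rarb (chr15:11336142-11336441, plus strand): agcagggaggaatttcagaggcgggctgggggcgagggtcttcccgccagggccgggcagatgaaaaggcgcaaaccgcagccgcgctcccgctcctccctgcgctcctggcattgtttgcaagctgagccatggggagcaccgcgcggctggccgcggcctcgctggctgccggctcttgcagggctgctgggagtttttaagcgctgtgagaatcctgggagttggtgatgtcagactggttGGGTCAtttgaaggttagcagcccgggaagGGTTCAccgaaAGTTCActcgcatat
Cyp26b1 (chr4:118616127-118616426, minus strand): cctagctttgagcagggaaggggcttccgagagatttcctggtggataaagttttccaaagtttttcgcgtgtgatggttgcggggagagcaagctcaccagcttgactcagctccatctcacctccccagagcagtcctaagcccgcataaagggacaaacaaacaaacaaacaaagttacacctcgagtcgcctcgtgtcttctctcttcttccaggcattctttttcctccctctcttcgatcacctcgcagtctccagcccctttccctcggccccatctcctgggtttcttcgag

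The Rarb promoter held 3 core motifs. One, GGGTCA, began 6 bases before the gene's start. The others, a GGTTCA followed by an AGTTCA, formed a direct repeat with a gap of 5 bases that began 25 bases after the start. Of the 33469 RefSeq promoters of the same length, 44.4% held at least 1 of the 4 motifs, 13.5% held 2 or more, and 0.382% held a direct repeat of them with a gap of 5. The Cyp26b1 promoter held none. The Aldh1a1 promoter held 1, GGGTCA on the minus strand, and those of Aldh1a2, Aldh1a3, Rbp4, Crabp1 and Crabp2 held none. A match of letters is a description of the window and not a binding site.

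The array probes are 60 bases long. For Rarb and Aldh1a3, whose reference signal was dim, the probes are shown because their ratios rest on it. Each could be read without a stop codon in 1 forward frame.
Rarb probe: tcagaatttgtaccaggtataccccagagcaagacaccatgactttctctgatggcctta
Aldh1a3 probe: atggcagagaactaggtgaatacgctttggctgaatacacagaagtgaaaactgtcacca

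Across the series, no gene passed an adjusted p of 0.05 between treated and control rats (limma with Benjamini-Hochberg adjustment, smallest adjusted p = 0.288), and 1117 of the 23188 genes (4.82%) had an unadjusted p under 0.05. The share of spots well above background in Cy5 was 64.7% to 76.8% on the control arrays and 59.2% to 68.1% on the treated arrays, and in Cy3 it was 48.2% to 52.6% on all 8. Each of the 2 slides carried 2 rats of either group. The treated rats held positions 1 and 2 of both slides and the controls positions 3 and 4, so position and treatment cannot be told apart. Of the 11 luminal epithelium markers 10 were measured, all above background in both channels on all 8 arrays. Of these, Pbsn, which encodes probasin, lay more than 2-fold under the reference in every rat.

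For most of the retinoic acid genes the mean ratio over the reference was larger in size than the difference between the groups. Cyp26b1 went the other way with loess, at -0.20 against 0.46. Over all genes the median size of the group difference was 0.09. Whether the members differ in this from genes in general was not tested. Of the 4 synthesis genes 3 had a mean above the reference. The fourth, Aldh1a1, had a mean of -0.15 with loess, at -0.34 on slide 1 and 0.03 on slide 2. With median centring its mean was 1.17. The carriers Rbp4 and Crabp2 were below the reference. With loess, no member was more than 2-fold over the reference in all 8 rats, where 865 genes (3.73%) were, and Rbp4 and Crabp2 were more than 2-fold under it in all 8, where 763 genes (3.29%) were. These calls depend on the normalisation. With median centring the mean log2 ratio of Crabp2 was -0.52, less than 2-fold under the reference, and that of Rbp4 was -2.32. Aldh1a3 had a mean of 2.03 and Rdh10 of 1.74 with median centring, and Aldh1a3 had 2.15 and Rarb 2.61 in the log ratios of the scanner software. Between the groups, 3 of the 8 tested members had a higher mean in treated rats and 5 a lower one, with a median difference of -0.06, against 11461 higher and 11727 lower among all genes. The groups did not overlap for 1 member, Cyp26b1, where they did not overlap for 632 of all genes (2.73%, with treated rats higher for 1.50% and lower for 1.23%).

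**Figure D1:**
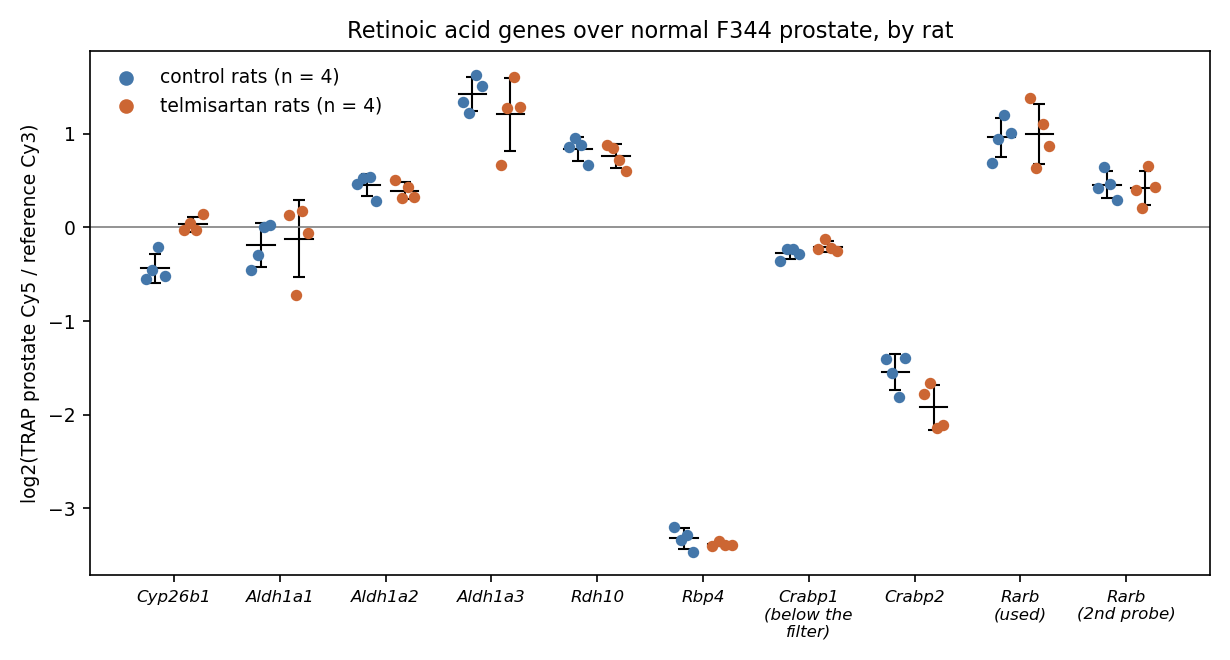
Log2 ratio of each rat's prostate (Cy5) over the normal F344 reference (Cy3) for the 10 probes of the 9 genes; points are rats, horizontal bars the mean and error bars the SD of 4 rats. Rbp4 lies below -3 in every rat, Crabp2 lies between -2.14 and -1.39, and only the Cyp26b1 groups do not overlap among the probes that passed the filter.

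Rdh10 encodes the dehydrogenase that turns retinol into retinaldehyde, the first of the oxidation steps. Its ratio lay between 0.66 and 0.95 in the control rats and between 0.60 and 0.88 in the treated rats, overlapping ranges. The mean of all 8 was 0.80 ± 0.12 (SD, n = 8), or 1.74-fold over the reference. The treated mean differed from the control mean by -0.08 (SE 0.11).

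Aldh1a3, a retinaldehyde dehydrogenase known from the eye and nasal region of the embryo, was above the reference in every rat. The control rats 102, 103, 104 and 106 measured 1.34, 1.22, 1.63 and 1.51, and the treated rats 302, 303, 305 and 306 measured 0.67, 1.27, 1.60 and 1.28. Rat 302 was the lowest of all 8, and the other treated rats lay inside the control range. The control mean was 1.42 ± 0.18 and the treated mean 1.20 ± 0.39 (SD, n = 4 each), with a difference of -0.22 (SE 0.19). Without rat 302 the difference was -0.04. Over all 8 rats the gene was 2.49-fold over the reference, a ratio higher than that of 94.8% of the genes tested. Its reference channel was above background on 6 of the 8 arrays.

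Aldh1a2, the main retinaldehyde dehydrogenase of the early embryo, was above the reference in every rat. Its ratio lay between 0.28 and 0.54 in controls and between 0.31 and 0.51 in treated rats, so that the treated range fell inside the control range. The mean of 8 was 0.42 ± 0.11 (SD), 1.34-fold over the reference, and the groups differed by -0.06 (SE 0.10).

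Aldh1a1, the dehydrogenase of this family that is widespread in adult epithelia, varied most within groups. The control rats 102, 103, 104 and 106 measured -0.46, -0.30, 0.00 and 0.02, and the treated rats 302, 303, 305 and 306 measured 0.13, -0.72, 0.17 and -0.06. Rat 303 was the lowest of all, while treated rats 302 and 305 lay above every control. The group means were -0.18 ± 0.24 and -0.12 ± 0.41 (SD, n = 4 each), a difference of 0.06 (SE 0.20) that became 0.26 without rat 303. The SD within groups, 0.34, was larger than that of 88.2% of all genes, whose median was 0.18. A probe named for the neighbouring family member Aldh1a4 measured -0.19 ± 0.29 (SD, n = 8). It was above background in Cy5 on 6 arrays and in Cy3 on 0. How far either probe takes up RNA of the other gene was not tested.

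Rbp4 encodes the carrier of retinol in blood, made chiefly by liver and fat. It lay far below the reference, at -3.20, -3.34, -3.28 and -3.46 in control rats 102, 103, 104 and 106 and at -3.40, -3.35, -3.39 and -3.39 in treated rats 302, 303, 305 and 306. The treated rats all fell inside the control range. Over 8 rats the mean was -3.35 ± 0.08 (SD), 10.2-fold under the reference, and only 0.461% of the genes tested had a lower ratio. The spread within groups was small, 0.08, with only 3.45% of genes below it, and the groups differed by -0.06 (SE 0.09). Both channels of the Rbp4 probe were dim on the array of rat 306, at a log2 intensity of 7.27 in Cy5 and 10.66 in Cy3, against 7.90 to 8.16 and 11.29 to 11.43 on the other arrays. The ratio of that rat was near those of the others.

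Fat cell markers were also under the reference. Of the 7 adipocyte markers 4 were measured (Adipoq, Fabp4, Cfd and Lpl), and all 4 were more than 2-fold under the reference in every rat. Their mean ratio lay between -3.69 and -3.50 in control rats and between -4.31 and -3.57 in treated rats. Adipoq, which encodes the fat cell hormone adiponectin, had a mean of -6.45. Plin1, Lep and Cidec did not pass the filter on dim probes. Skeletal muscle markers, with 5 of 7 measured, lay at -4.22 to -4.13 in control rats and -4.26 to -4.16 in treated rats. Of the 5 hepatocyte markers Alb, Apoa1 and Apoa2 did not pass the filter, and the mean ratio of Serpina1 and Fgb lay at 0.44 to 1.02 in control rats and 0.13 to 0.69 in treated rats. Serpina1 had a mean of 1.35 and Fgb of -0.27, with the reference above background on 0 and 1 of the 8 arrays. Over the 8 rats Rbp4 and the adipocyte markers had r = 0.512 (exact permutation p = 0.189, adjusted p = 0.826) and rho = 0.786 (exact permutation p = 0.0279, adjusted p = 0.513), with r = 0.826 without rats 302 and 306. With group means removed r was 0.356. The r with Rbp4 was larger in size for smooth muscle markers, at -0.663 (rho = -0.619). It was also larger for neuroendocrine markers, at 0.584 (rho = 0.262), of which 1 of 4 was measured. The part of fat cells or other cells in the low level of Rbp4 against the reference was not tested.

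Crabp2 encodes a cytoplasmic carrier that hands retinoic acid to its receptors. The control rats 102, 103, 104 and 106 measured -1.41, -1.56, -1.81 and -1.39, and the treated rats 302, 303, 305 and 306 measured -1.78, -1.66, -2.14 and -2.11. Rats 305 and 306 lay below every control, while rats 302 and 303 lay above control rat 104. The means were -1.54 ± 0.19 and -1.92 ± 0.24 (SD, n = 4 each), a difference of -0.38 (SE 0.14), or 1.30-fold lower in treated rats. The difference lay in Cy5, where the mean log2 intensity was 10.05 ± 0.17 in controls and 9.60 ± 0.28 in treated rats, and less in Cy3, at 11.59 ± 0.02 and 11.53 ± 0.06. It was -0.23 on slide 1 and -0.53 on slide 2. Over all 8 rats Crabp2 was 3.32-fold under the reference, and 2.02% of genes had a lower ratio.

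Crabp1, the related cytoplasmic carrier, was at the limit of the array. Its probe was well above background in Cy5 on 2 of the 4 control arrays and on 0 of the 4 treated arrays, and in Cy3 on 0 of 8. Its ratios, from -0.36 to -0.12, are therefore given without a fold change, and the gene was not tested.

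Rarb encodes retinoic acid receptor beta. With the brighter of its 2 probes the control rats 102, 103, 104 and 106 measured 0.69, 0.94, 1.20 and 1.01, and the treated rats 302, 303, 305 and 306 measured 1.38, 0.63, 1.10 and 0.87. The lowest and the highest rats were both treated, and the control range lay between them. The means were 0.96 ± 0.21 and 0.99 ± 0.32 (SD, n = 4 each), a difference of 0.03 (SE 0.17). The reference was not above background on any of the 8 arrays. The mean ratio over it was 1.97-fold. A bound was set against the lowest signal called well above background on each array, or the probe's own reference signal if higher. It gave the same value, as the probe's own reference signal was the higher of these. The bound thus adds nothing to the ratio, and 1.97-fold is not shown to be a lower limit. The mean log2 ratio was 0.98 as used, 0.65 with no background correction and 2.61 in the log ratios of the scanner software. The other probe measured 0.45 ± 0.15 in controls and 0.42 ± 0.18 in treated rats, with the reference above background on 1 of 8 arrays. Its order of rats differed from that of the brighter probe: over the 8 rats r was 0.324 (exact permutation p = 0.438) and rho 0.333 (exact permutation p = 0.428), and r was 0.212 without rats 302 and 303.

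Cyp26b1 encodes an enzyme that oxidises and so inactivates retinoic acid, and it showed the largest difference between the groups among the members. The control rats 102, 103, 104 and 106 measured -0.55, -0.46, -0.21 and -0.52, and the treated rats 302, 303, 305 and 306 measured -0.03, 0.05, -0.03 and 0.14. Every treated rat lay above every control, with a gap of 0.17 between the nearest rats. The means were -0.43 ± 0.16 and 0.03 ± 0.08 (SD, n = 4 each), a difference of 0.46 (SE 0.10) or 1.38-fold. By the size of its difference it ranked 730 of the 23188 genes. The control rats were thus below the reference and the treated rats near it. Under median centring, which raises the median of all genes from 0.06 to 0.69, the mean of all 8 rats moved from -0.20 to 0.53 and that of Aldh1a1 from -0.15 to 1.17.

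The Cyp26b1 difference was present on both slides, at 0.51 on slide 1 and 0.42 on slide 2. It lay in the channel of the TRAP prostate, whose log2 intensity was 8.07, 8.24, 8.44 and 8.02 in control rats 102, 103, 104 and 106 and 8.75, 8.86, 8.52 and 8.79 in treated rats 302, 303, 305 and 306. The reference channel of the same spots measured 8.62 ± 0.07 on the control arrays and 8.70 ± 0.12 on the treated arrays (SD, n = 4 each). The Cy5 difference was thus 0.54 and the Cy3 difference 0.08. In the log ratios of the scanner software the group difference was 0.69. Of the marker lists, those of smooth muscle, fibroblast and seminal vesicle had the r of largest size with Cyp26b1, and none passed after adjustment. The smooth muscle markers, 7 of 8 measured, had a mean ratio of -1.35 to -0.86 in controls and -1.04 to -0.68 in treated rats. Over the 8 rats they had r = 0.665 with Cyp26b1 (exact permutation p = 0.0686, adjusted p = 0.744) and rho = 0.762 (exact permutation p = 0.0368, adjusted p = 0.513), and r was 0.185 without rats 102 and 103. The fibroblast markers, 10 of 10 measured, lay at -0.52 to -0.40 and -0.90 to -0.46. Their r with Cyp26b1 was -0.642 (exact permutation p = 0.0488, adjusted p = 0.744) and rho -0.738 (exact permutation p = 0.0458, adjusted p = 0.513), and r was -0.389 without rats 302 and 306. Seminal vesicle markers, 2 of 4 measured, lay at -5.78 to -5.49 and -5.50 to -5.19, with r = 0.631 (exact permutation p = 0.0893, adjusted p = 0.744), rho = 0.667 (exact permutation p = 0.0831, adjusted p = 0.775) and r = 0.576 without rats 302 and 106. These r span both groups, so a list that differs between the groups can correlate with Cyp26b1 through that difference alone. With group means removed r was 0.483 for smooth muscle, -0.542 for fibroblast and -0.122 for seminal vesicle markers. The part of these cells in the Cyp26b1 difference was not tested.

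**Figure D2:**
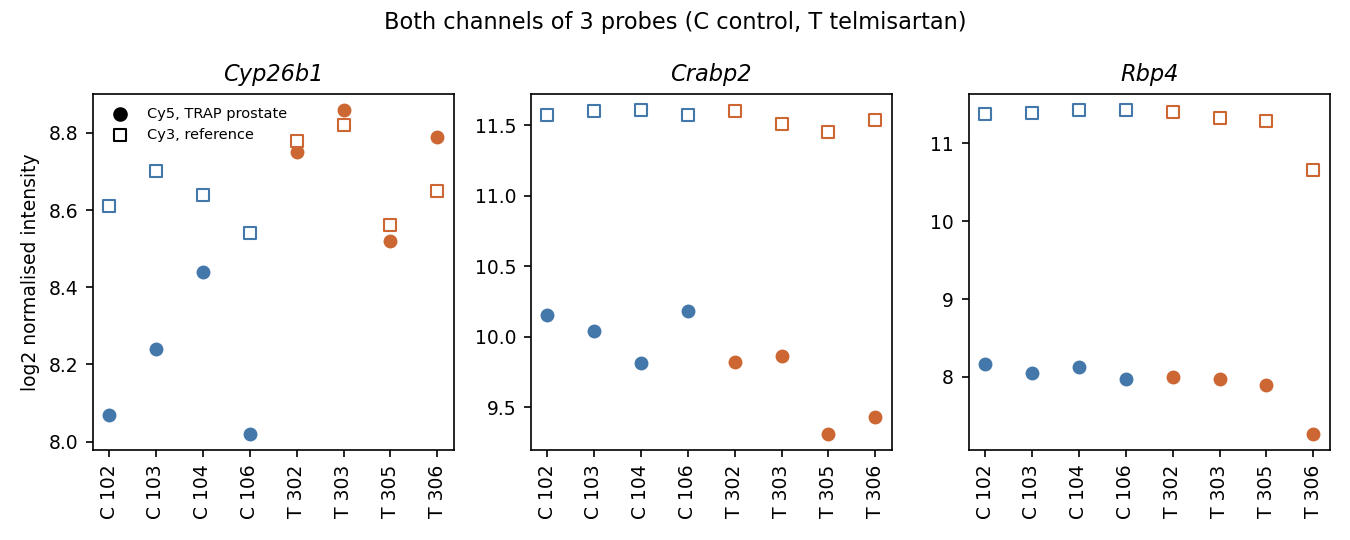
Normalised log2 intensity of Cy5 (filled circles, TRAP prostate) and Cy3 (open squares, reference) for each rat, with controls in blue and treated rats in orange. For Cyp26b1 the 4 treated rats are above the 4 controls in Cy5, from 8.52 to 8.86 against 8.02 to 8.44; for Crabp2 and Rbp4 the reference is brighter in every rat, and rat 306 is dim in both channels of Rbp4.

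**Figure D3:**
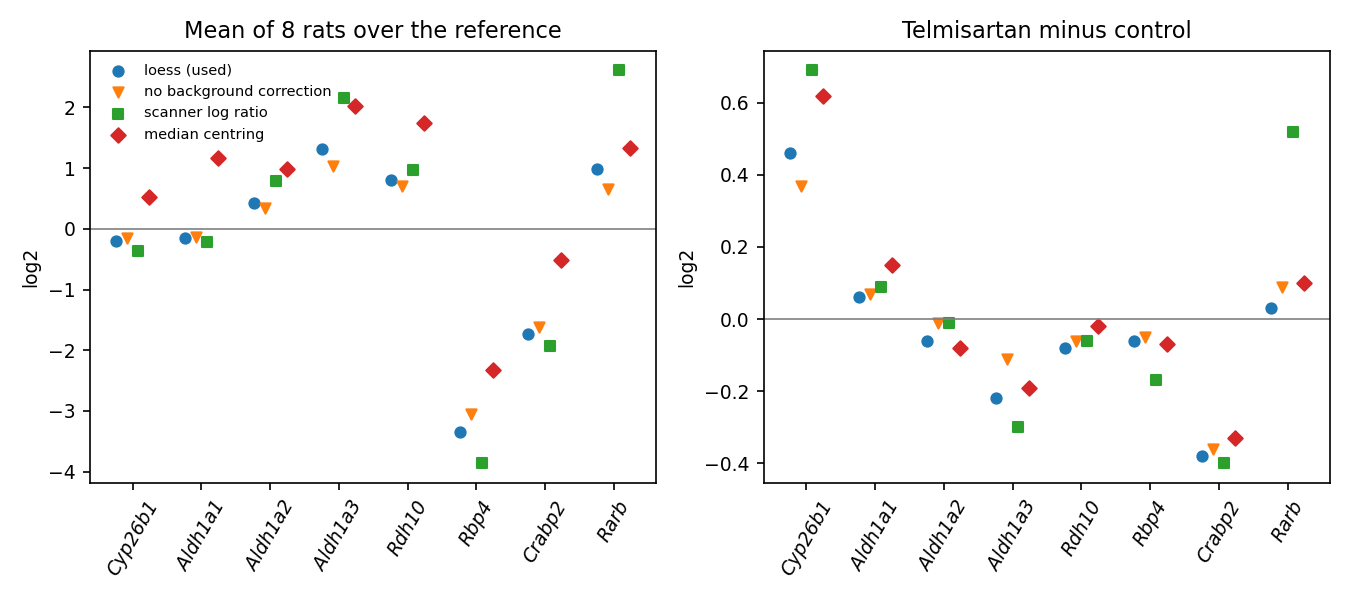
Mean log2 ratio of 8 rats over the reference (left) and difference of treated minus control means (right) for the 8 tested members under 4 ways of correcting and normalising the arrays. Rbp4 and Crabp2 stay under 0 on the left in all 4, Crabp2 at -0.52 under median centring, Cyp26b1 and Aldh1a1 change sign under median centring, and on the right Cyp26b1 lies between 0.37 and 0.69.

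The remaining genes of the pathway were described from a list of 51, of which 33 were tested, 10 had a probe that did not pass the filters and 8 had no probe under their name. Between the groups 17 were higher and 16 lower in treated rats, with a median difference of 0.01, and 0 passed the adjusted threshold, which 0% of all genes passed (limma, smallest adjusted p = 0.982 on the list). Before adjustment, 3 were higher at a p under 0.05, where 2.74% of all genes were, and 1 was lower, where 2.07% were. The groups did not overlap for 1 of the 33, near the 2.73% of all genes.

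That gene was Rdh16, a retinol dehydrogenase of liver microsomes. Control rats 102, 103, 104 and 106 measured 0.91, 1.05, 1.19 and 1.16, and treated rats 302, 303, 305 and 306 measured 2.33, 1.47, 1.42 and 1.43. Rat 302 stood far above the rest, and the 3 other treated rats were still above every control. The means were 1.08 ± 0.13 and 1.66 ± 0.45 (SD, n = 4 each), a difference of 0.59 (SE 0.20, limma adjusted p = 0.982). Of the 7 tested alcohol dehydrogenases and retinaldehyde reductases, 5 were higher and 2 lower. Adh1c, a retinol-oxidising alcohol dehydrogenase, differed by 0.32 (SE 0.30). Dhrs3, which reduces retinaldehyde back to retinol, was more than 2-fold over the reference in all 8 rats, at 1.36 ± 0.33 in controls and 1.50 ± 0.34 in treated rats, and it differed by 0.13 (SE 0.20).

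Of the 8 tested genes of retinol uptake, binding and storage, 4 were higher and 4 lower. Dgat1, an acyltransferase that can esterify retinol, differed by 0.26 (SE 0.11), and Bco2, which cleaves carotenoids, by -0.36 (SE 0.13), both with a limma adjusted p of 0.982. The Bco2 probe was above background in Cy5 on 3 control and 1 treated arrays and in Cy3 on 0. Cyp26a1, the other tested degrading enzyme, differed by 0.24 (SE 0.21). It lay between 0.06 and 0.48 in controls and between -0.01 and 1.10 in treated rats, with rat 303 the highest, and its reference was not above background on any array. Whether Cyp26a1 and Cyp26b1 differed from each other in their response was not tested.

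Fabp5, a fatty acid carrier that also binds retinoic acid, was the other gene of the list more than 2-fold over the reference in every rat, at 7.06-fold on the mean of 8. It measured 3.14 ± 0.29 in controls and 2.50 ± 0.85 in treated rats (SD, n = 4 each), with rat 302 lowest at 1.37, and differed by -0.63 (SE 0.36). Of the 4 tested receptor genes 2 were higher and 2 lower. Rxrg, encoding retinoid X receptor gamma, was 3.04-fold under the reference and under it by more than 2-fold in all 8 rats, and it differed by 0.18 (SE 0.12). Rxra, the alpha receptor of that kind, differed by -0.05 (SE 0.12).

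The 6 coregulators of the receptors were 3 higher and 3 lower, and the coactivator Ncoa3 differed by -0.18 (SE 0.12). Of the 6 tested genes known to respond to retinoic acid, 2 were higher and 4 lower. Meis2, a homeobox gene, measured -0.82 ± 0.10 in controls and -0.53 ± 0.17 in treated rats (SD, n = 4 each), a difference of 0.29 (SE 0.11, limma adjusted p = 0.982). Rarres1, named for its response to retinoids, differed by -0.48 (SE 0.40).

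**Figure D4:**
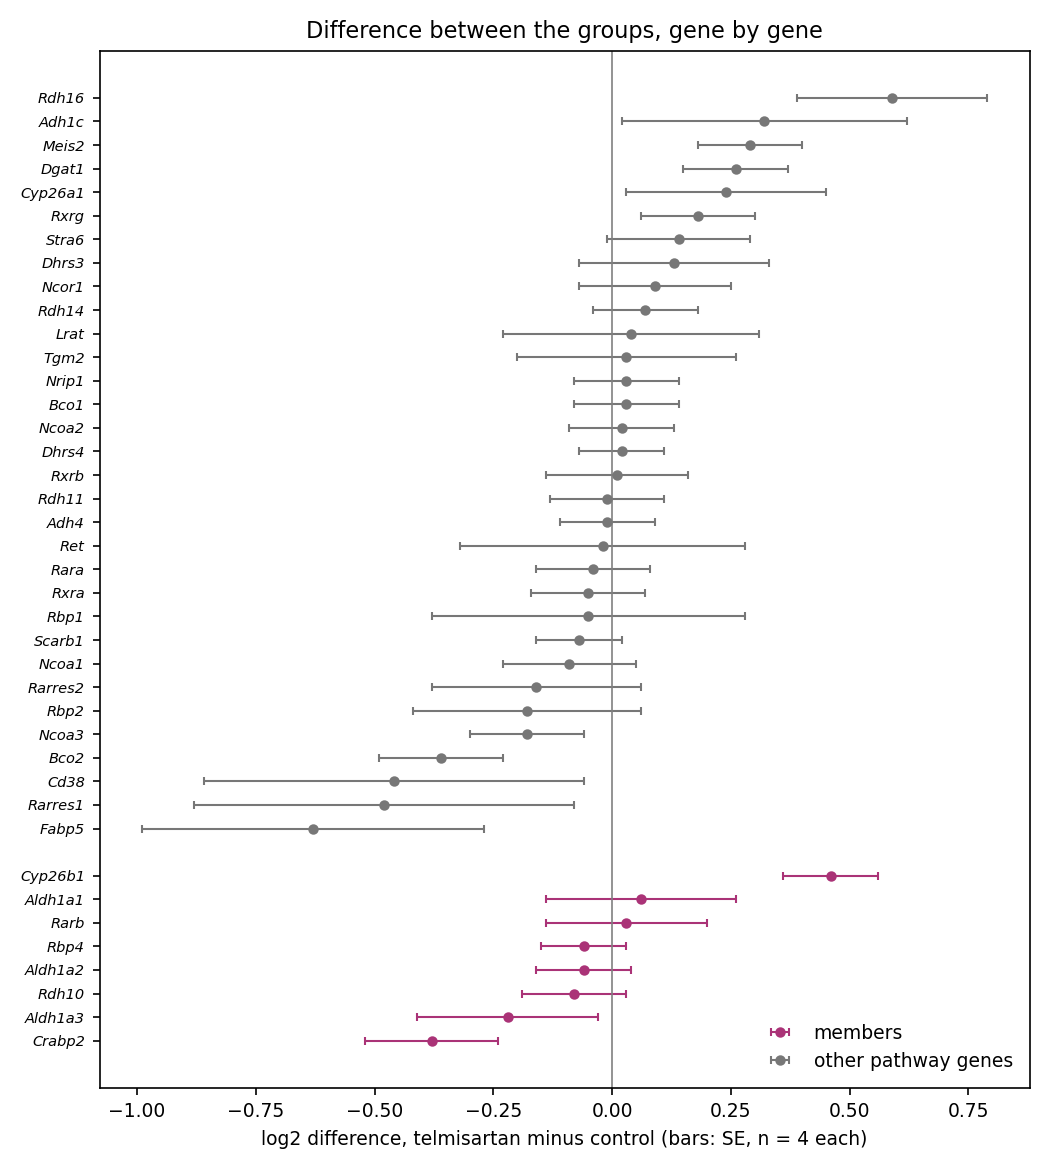
Difference of the treated mean from the control mean on the log2 scale (points) with its standard error (bars) for other genes of the retinoid pathway (grey) and the 8 tested members (purple), 4 rats per group. Rdh16 at 0.59 and Cyp26b1 at 0.46 are the highest of the plotted genes, and Fabp5 at -0.63 and Rarres1 at -0.48 the lowest.

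The members were also compared with one another from rat to rat. Of the 28 pairs of tested members 13 correlated positively and 15 negatively over the 8 rats, and none passed after adjustment over the 28 (smallest adjusted p = 0.160, exact permutation). That pair was Aldh1a1 and Rarb, with r = 0.857 (exact permutation p = 0.00570, adjusted p = 0.160) and rho = 0.857 (exact permutation p = 0.0107, adjusted p = 0.300). Leaving out the rats farthest from the Aldh1a1 median, 303 and 102, gave r = 0.601, and removing slide means gave r = 0.916. With the other Rarb probe r was 0.406 (exact permutation p = 0.308) and rho 0.357 (exact permutation p = 0.389), and r was -0.258 without the same rats. Cyp26b1 and Crabp2 ran opposite to each other, with r = -0.824 (exact permutation p = 0.0166, adjusted p = 0.233) and rho = -0.690 (exact permutation p = 0.0694, adjusted p = 0.582). Without rats 102 and 106 r was -0.626, and with group means removed it was -0.612. The groups differ in opposite directions for Cyp26b1 and Crabp2, by 0.46 and -0.38, and members were selected on such differences. Their r over all 8 rats can come from that alone, so its p is no support for a link. A relation within the groups was not tested.

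Each tested member was also set against the mean ratio of each of 14 cell type marker lists, 112 relations in all, none of which passed after adjustment. Aldh1a3 had r = 0.841 with the T cell markers (exact permutation p = 0.00290, adjusted p = 0.262) and rho = 0.857 (exact permutation p = 0.0107, adjusted p = 0.513). It had r = 0.890 with the macrophage markers (exact permutation p = 0.00565, adjusted p = 0.262) and rho = 0.738 (exact permutation p = 0.0458, adjusted p = 0.513). All 9 T cell markers were measured, and their mean ratio ranged from 0.63 to 2.18 in control rats and from 0.33 to 1.92 in treated rats. All 8 macrophage markers were measured, with ranges of 1.06 to 1.61 and 0.61 to 1.55. With the 8 endothelium markers r was 0.800 (exact permutation p = 0.00811, adjusted p = 0.262) and rho 0.952 (exact permutation p = 0.00114, adjusted p = 0.128), and their ranges were -0.67 to -0.23 and -0.61 to -0.19. Several endothelium markers were dim. Pecam1, Robo4 and Tek were above background in Cy5 on 5, 4 and 4 arrays and in Cy3 on 0. Cdh5 was above it in Cy5 on 6 and in Cy3 on 1. The reference was also dim for T cell markers. Cd3e, Cd2 and Cd4 were above background in Cy3 on 0 arrays, Cd5 on 1, Lck on 5 and Cd8a on 6. Cd3d, Cd3g and Cd8b were above it on all 8. Of the macrophage markers, Cd163 was above it in Cy3 on 1 array and the others on all 8. Removing slide means gave r = 0.754 for T cell, 0.916 for macrophage and 0.617 for endothelium markers. Rat 302 was lowest in Aldh1a3 and in the T cell and macrophage markers. Leaving out the 2 rats farthest from the median of each marker list gave r = 0.679, 0.544 and 0.886 in this order of T cell, macrophage and endothelium. Aldh1a3 ran opposite to the seminal vesicle markers, with r = -0.823 (exact permutation p = 0.0117, adjusted p = 0.262), rho = -0.810 (exact permutation p = 0.0218, adjusted p = 0.513) and r = -0.485 without rats 302 and 106. Aldh1a2 had r = 0.844 with the skeletal muscle markers (exact permutation p = 0.0100, adjusted p = 0.262), rho = 0.786 (exact permutation p = 0.0279, adjusted p = 0.513) and r = 0.815 without rats 303 and 104. The part of these cells in the levels of Aldh1a3 and Aldh1a2 was not tested.

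**Figure D5:**
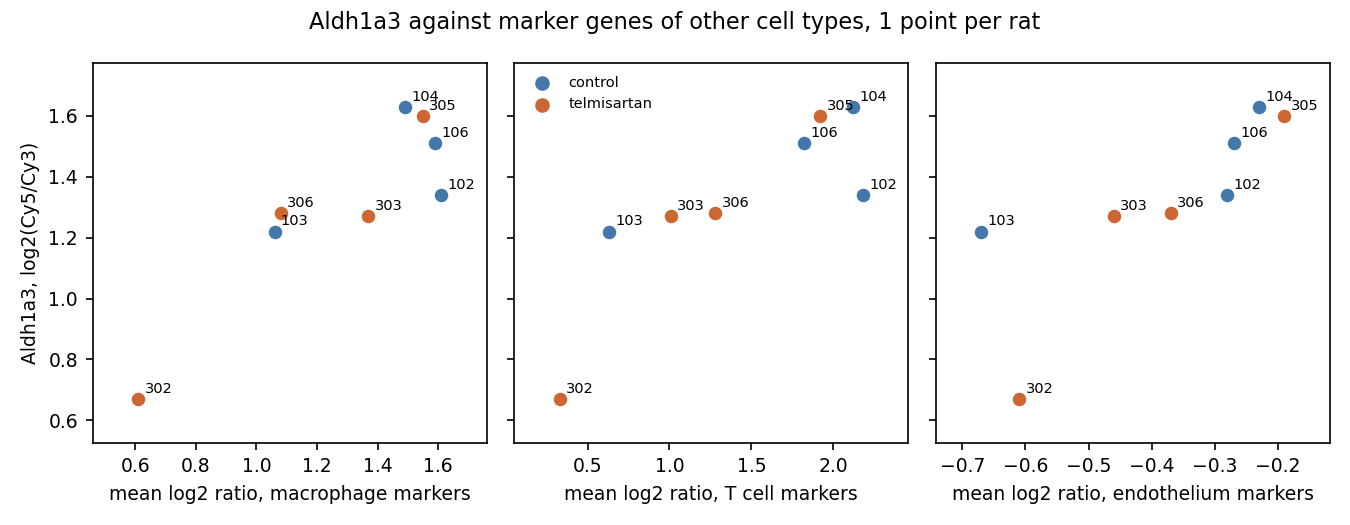
Log2 ratio of Aldh1a3 over the reference against the mean log2 ratio of macrophage, T cell and endothelium markers, 1 point per rat, with controls in blue and treated rats in orange. Rat 302 is at the lower left of the first 2 panels, at 0.67 for Aldh1a3, and rats 104 and 305, with 1.63 and 1.60, are highest.

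The genes most like each member were sought among all tested genes with a symbol, by Pearson correlation of the log2 ratio over the 8 arrays. The 3 most like each of the 8 members, 24 in all, had r from 0.92 to 0.992, and 4 of the 24 were not above background in the reference on any array. The first in rank was Igdcc4 for Cyp26b1 (r = 0.927), Man1b1 for Aldh1a1 (0.962), Tiam1 for Aldh1a2 (0.955) and Kdm6b for Aldh1a3 (0.985). It was Xrn1 for Rdh10 (0.963), Lin28a for Rbp4 (0.947), Nr0b1 for Crabp2 (0.971) and Alkbh8 for Rarb (0.992). Igdcc4 and Nr0b1 were among the 4 not above background in the reference, and were above it in Cy5 on 6 and 4 arrays. Removing group means took the likeness of Igdcc4 to Cyp26b1 to r = 0.649, while for the other first-ranked genes r stayed between 0.941 and 0.992. The points of each correlation share arrays, reference and normalisation, and the genes were picked as the highest of many, so that r is a description.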

How the data were processed

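Ventral prostate RNA of 8 rats was measured on 2-colour arrays, dyes never swapped. Per the submitters' processing notes the arrays were read with Agilent Feature Extraction 9.1. The deposited files give, per spot, mean intensity and local background median in both channels, uncorrected, and a log10 ratio already corrected for background and dye, per the file headers. The deposited series matrix gave the same log10 ratios within 0.005.

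Intensities were corrected with normexp (offset 50) and normalized by loess within arrays, control spots at weight 0, with limma 3.58.1 in R 4.3.3. Spots marked as feature outliers were left out and saturated spots kept. Probes were kept if 4 or more of the 8 arrays had Cy5 well above background and all 8 had a value, and the brightest was used per gene. Names came from the RefSeq table of GRCr8: 10735 of 41012 probes matched by accession, 5571 by symbol, 3729 by synonym, and 20977 kept the file's name. Groups were compared with lmFit and eBayes, two-sided, group as the only term, Benjamini-Hochberg adjustment over all 23188 genes, threshold 0.05. The code was tested on simulated data. Correlations over rats were tested over all 40320 orders.

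The members, gene lists and naming rules were chosen with earlier results of these data known. In each role of the pathway list the 2 genes with the smallest unadjusted p were named, with every gene beyond 2-fold from the reference in all rats; of the 3 genes most like each member, the first was named. Some genes that these rules take are not reported here. The labels call the rats separate samples. The sources used here do not say whether the reference was 1 pool. For the treated rats a label gives doses of 2 and 10 mg/kg per day, of which the series text assigns 10 to the arrays; rats at 2 were not analysed here. No number of reads limits an array; precision is limited by the number of arrays, 4 per group.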

Additional observations from a re-analysis of the deposited data

How the results depend on the processing

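The count of genes with an adjusted p under 0.05 was 0 as reported and 0 to 1 when each rat was left out, with 1 gene, no member, without control rat 102 and 1 other without treated rat 303. It was 0 for the pathway list throughout. The count at an unadjusted p under 0.05, 1117 as reported, was 1959 with no filter on dim probes and 2597 with array weights, and ranged from 665 without rat 306 to 2021 without rat 103. It was 1758 without rat 305. The cause was not tested.

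Under the other corrections and normalizations, within each slide and with each rat left out, Cyp26b1 was higher in treated rats (0.37 to 0.69) and Crabp2 lower (-0.53 to -0.23). The filters, the mean of probes, the slide block and the variance model cannot move the difference of a gene with 1 probe, and the series matrix repeats the scanner ratio, so these add nothing here. Aldh1a2, Aldh1a3, Rdh10 and Rbp4 also kept their sign, while Aldh1a1 (-0.03 to 0.26) and Rarb (-0.12 to 0.52) did not. The Rarb value of 0.52 came from the scanner log ratio, under which its level over the reference was 2.61 in place of 0.98. Its reference signal was not well above background on any array. No paired analysis was possible because the groups share no replicate numbers. With slide as a block the adjusted count was 0 and the unadjusted count 1412.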
